A study of Mus musculus with 9 samples.

Results

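Interferon-stimulated genes are described here in 4T1 cells, an established mouse mammary carcinoma line. The members are 44 genes, listed by name for their known response to interferon or for coding its receptors. All 44 had rows in the deposited table, out of 52306 named genes. Of the 44, 22 reached a mean of 1 FPKM (fragments counted per kilobase of a transcript and scaled for library size) over the 9 libraries and were tested among 10453 genes. RNA had been taken on day 2 from a negative control group (NC), a group given MK1775 and a group labelled Wee1 siRNA, with 3 libraries in each. MK1775 is a small-molecule inhibitor of the kinase WEE1, which holds cells back from mitosis. The sources used here give neither the MK1775 dose nor the siRNA sequences, nor what the negative control was. They also do not say if the 3 numbered siRNA libraries carry the same siRNA, or if the libraries of a group came from separate cultures. The p-values therefore measure only the spread between these libraries, which may be technical.

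Type I interferons bind the receptor pair IFNAR1 and IFNAR2, and interferon gamma binds IFNGR1 and IFNGR2. Janus kinases on these receptors phosphorylate STAT proteins; a complex that holds STAT2 and IRF9 binds interferon-stimulated response elements, whereas STAT pairs bind gamma-activated sites. The genes switched on in this way restrict viruses, present antigen and feed back on the pathway, and some carcinoma cells keep a low level of them without infection.

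The summed FPKM of a library lay between 321551 and 332950, and the read depth is unknown. Named genes at 1 FPKM numbered 10017 to 10172 in NC, 10361 to 10415 with MK1775 and 10457 to 10783 under the siRNA label. Transcripts without a gene name carried 10.0% to 11.2%, 12.1% to 12.6% and 12.3% to 12.8% of the FPKM. Both quantities were higher in every treated library than in NC, and their part in the results on members of low level was not tested. Within groups the correlation of log values over genes was 0.968 to 0.982, and no library repeated another. Wee1 itself was not lower in the siRNA-labelled libraries. It stood at 10.5 to 11.5 FPKM in NC, 14.7 to 16.8 with MK1775 and 13.1 to 15.3 in the libraries labelled Wee1 siRNA, a rise of 0.46 and 0.37 in log2(FPKM + 1) (limma, Benjamini-Hochberg adjusted p = 0.00226 and 0.00633). Every direction given for that group is therefore that of the libraries carrying the label. Of 6 epithelial markers, Krt8 and Krt18 were above 181 FPKM in every library, whereas Epcam stayed at or below 0.573 and Cldn7 at or below 0.111. Epithelial markers differed between the groups too, not all in 1 direction. Krt8 (0.57 and 0.45), Krt18 (0.92 and 0.80) and Cdh1 (0.74 and 0.74) were called higher in both comparisons with NC. The mean of Epcam went from 0.0573 FPKM in NC to 0.435 and 0.421. Krt19 was not called (0.15 and 0.17, limma adjusted p = 0.345 and 0.278). The mean of Cldn7 went the other way, from 0.0840 FPKM in NC to 0.0142 and 0.0370. The 6 summed to 410 to 476 FPKM in NC, 763 to 781 with MK1775 and 705 to 714 under the siRNA label. Of 12 immune cell markers, 5 were listed at 0 in every library, among them Cd3e, Lyz2, Adgre1 and Nkg7. Cd14 and Cd68 had the highest means, at 4.68 and 2.85 FPKM, and Cd68 was called lower with MK1775 (-0.54, adjusted p = 0.0142). The mean of Ptprc went from 0.0126 FPKM in NC to 0.170 and 0.326. The 12 summed to 8.72 to 10.1 FPKM in NC, 7.02 to 9.98 with MK1775 and 7.98 to 11.5 under the siRNA label. Itgax and Itgam were listed at 0 in NC. Itgax stood at 1.54 to 2.50 and 0.548 to 2.89 FPKM in the treated groups, and Itgam at 0.167 to 0.421 and 0.339 to 0.545. The part of these epithelial and immune markers in the results on the members was not tested.

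Promoter sequence from RefSeq (build GRCm38.p6, 250 bases before to 50 bases after the gene's start) was at hand for 36 of the 44 members. The core of the interferon-stimulated response element, which is GAAA, NN and again GAAA, read on either strand, occurred in the windows of 14 of the 36 (38.9%), against 3.99% of 27025 genes in the same table. The gamma-activated site TTCNNNGAA, which reads the same on both strands, occurred in 10 of the 36 (27.8%) against 9.55%. The 2 motifs overlapped in the windows of Bst2 and Ifitm3. A match is a description of the letters and not a bound site. The stretches shown carry the core upstream of the start, in capitals, with up to 20 bases on each side, 5′ to 3′ on the gene's strand. They were picked to set genes that rose, a gene that fell and genes that did neither side by side.
Isg15, chr4:156200855-156200916, minus strand: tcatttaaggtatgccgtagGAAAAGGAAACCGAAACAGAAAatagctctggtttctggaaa
Stat2, chr10:128270256-128270305, plus strand: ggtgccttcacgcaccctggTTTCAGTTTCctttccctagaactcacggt
Irf2, chr8:46739495-46739533, plus strand: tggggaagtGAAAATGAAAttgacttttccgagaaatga
Oas3, chr5:120777705-120777754, minus strand: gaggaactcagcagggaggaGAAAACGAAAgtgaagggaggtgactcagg
Gbp2, chr3:142620584-142620633, plus strand: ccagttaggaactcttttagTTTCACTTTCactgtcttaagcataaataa
Ifitm2, chr7:140955978-140956027, minus strand: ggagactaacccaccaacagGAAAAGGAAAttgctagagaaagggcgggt
Bst2, chr8:71537567-71537622, minus strand: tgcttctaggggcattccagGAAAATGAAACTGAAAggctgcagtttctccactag
Ifit1, chr19:34640765-34640833, plus strand: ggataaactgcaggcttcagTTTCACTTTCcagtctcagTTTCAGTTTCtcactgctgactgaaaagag

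Stat2 and Irf2 rose, Ifitm2 fell, and Bst2 was not called in any comparison. Oas3, Gbp2 and Ifit1 lay under the minimum for testing, and Isg15 was high in all but 1 of the treated libraries. Isg15 held 3 overlapping cores in 1 run between bases 78 and 57 before its start. Of 7 members that rose, 6 had a window and 2 of these held the core; of 4 that fell, all had a window and 2 held it (Ifitm2 and Ifitm3). Of the 10 tested but uncalled members with a window, 3 held it, as did 7 of the 16 under the minimum. The windows of Oasl1, Irf7 and Lgals3bp held neither motif. Those of Isg20 and Ifi35 held a gamma-activated site alone. The map of motif matches sets these positions beside each other.

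**Figure D1:**
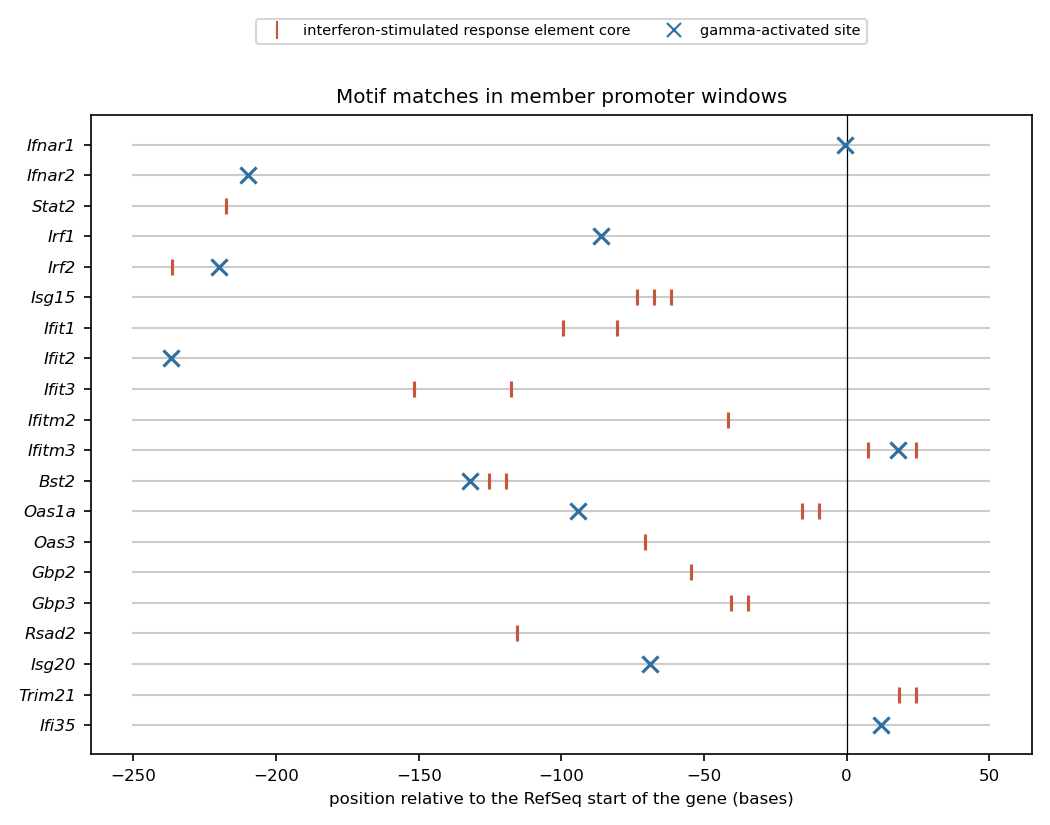
Position of each motif match relative to the RefSeq start of the gene (x axis, bases, 0 at the start) for the members with at least 1 match; grey lines mark the window searched, bars the response element core and crosses the gamma-activated site. The 3 cores of Isg15 sit close together upstream of the start, and the 2 of Ifitm3 lie after it.

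The members spanned a wide range of levels. Ifitm2 and Ifitm3, small membrane proteins that hinder virus entry, led with means over the 9 libraries of 88.2 and 79.4 FPKM. Next came Bst2 (24.1), Ifi27 (16.5), Irf1 (14.2), Lgals3bp (13.6), Isg20 (12.5) and Ifi35 (10.4). In all, 15 members reached 5 FPKM, 22 lay under 1 FPKM and 4 lay under 0.1 FPKM. At the limit for testing, Irf7 (1.26) and Herc6 (1.04) stood just inside and Rtp4 (0.975) and Trim21 (0.933) just outside. Irf7 and Herc6 had an NC mean under 1 FPKM and passed only through the treated libraries.

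With MK1775, 11 of the 22 tested members differed from NC, which is 50% beside 41% of all genes tested. Higher were 7 (31.8%, beside 17.9% of all genes) and lower were 4 (18.2%, beside 23.1%). In the siRNA-labelled libraries the same 11 genes differed in the same directions, again 50%, beside 42.8% of all genes, 19.6% higher and 23.2% lower. Without Irf7 and Herc6, which passed only through the treated libraries, 10 of 20 were called in each comparison (50%), 6 higher and 4 lower. The shares called in either direction lie near the background of genes that differed in these libraries. The share called higher lies above its background and the share called lower below it, and no test was made of these shares. The median member difference in log2(FPKM + 1) was 0.14 with MK1775 and 0.12 under the siRNA label, beside -0.04 and -0.01 over all genes tested. The 2 comparisons share the NC libraries, so like values in them are not independent. The genes that rose were Stat2, Irf7, Irf2, Oasl1, Isg20, Ifi27 and Ifi35, and those that fell were Ifnar2, Ifitm2, Ifitm3 and Lgals3bp. The libraries were made from bulk cells, so more cells expressing a gene and more RNA per cell cannot be told apart.

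**Figure D2:**
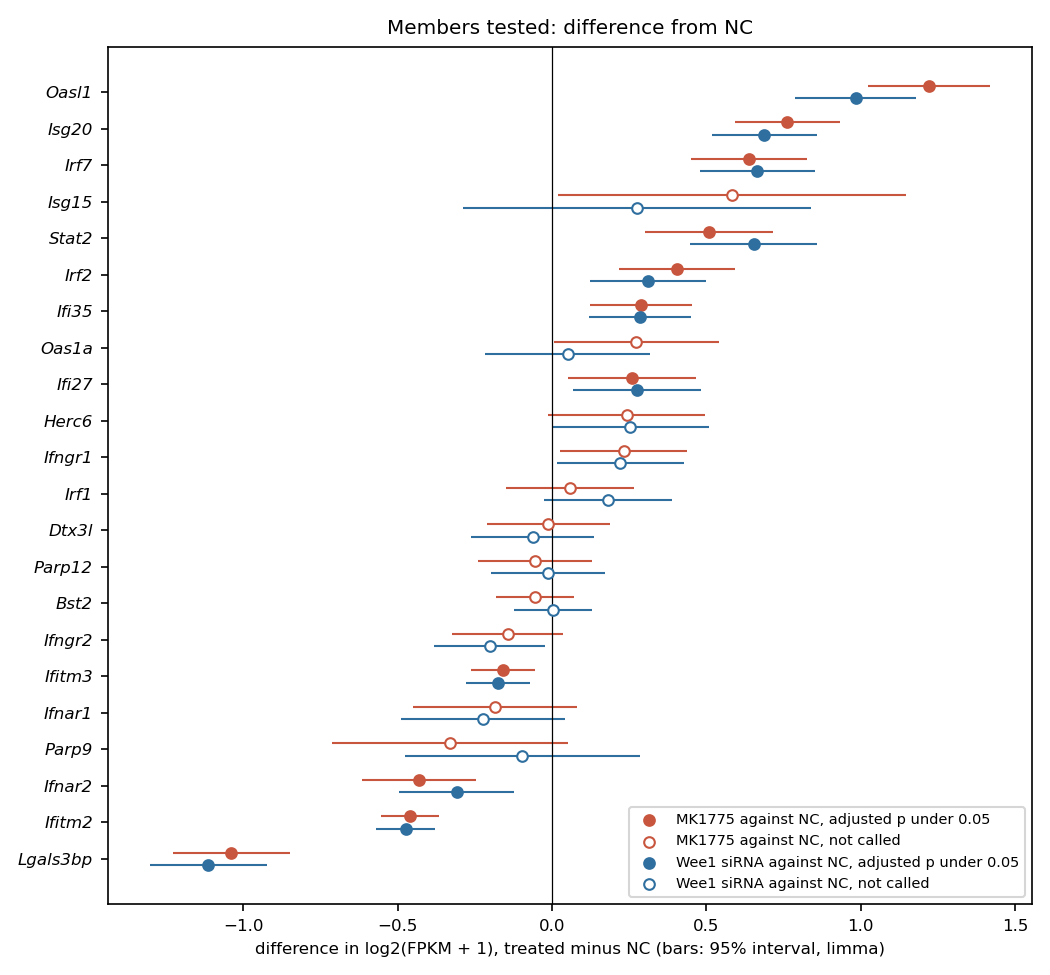
Difference from NC in log2(FPKM + 1) (x axis) for the 22 tested members (y axis), with MK1775 in red and the siRNA-labelled libraries in blue; bars are 95% intervals of the limma fit and filled points have an adjusted p under 0.05. Oasl1 lies highest at 1.22 and 0.98 and Lgals3bp lowest at -1.04 and -1.11.

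Among the receptors, Ifnar2, a chain of the type I interferon receptor, was the only 1 of 4 called. Its span is chr16:91169671-91202477 (GRCm39). It stood at 9.66, 8.48 and 10.1 FPKM in NC, at 6.37, 6.90 and 6.87 with MK1775 and at 7.52, 6.82 and 7.86 in the siRNA-labelled libraries. All 6 treated libraries lay below all NC libraries. Ifnar2 fell by 0.43 (SE 0.0803, adjusted p = 0.00339) with MK1775 and by 0.31 (adjusted p = 0.0152) under the siRNA label, on the log2(FPKM + 1) scale. Its value rests on several transcripts, since the most abundant made up 48.2% of the sum, and the deposited assembly joins its locus with that of Il10rb. The 1 unnamed transcript of the joined locus shares no base with the Ifnar2 span and lies within that of Il10rb. Taking the most abundant transcript, of 1099 bases, alone gave -0.32 and -0.10 (SE 0.282) and ended the call (adjusted p = 0.448 and 0.815). Under the siRNA label, leaving out NC library 3 (0.0579) or siRNA library 2 (0.0529) ended it too. Another transcript, of 3047 bases and 9 exons, stood at 4.39, 4.28 and 4.11 FPKM in NC. It stood at 2.98, 3.17 and 3.48 with MK1775 and at 2.97, 2.88 and 1.85 under the siRNA label. No fit was run on that transcript alone. Ifnar1, the partner chain, and Ifngr2 lie 79.6 and 39.3 kb further along chromosome 16, each behind the one before. Ifngr2, the signalling chain of the interferon gamma receptor, had means of 6.90, 6.15 and 5.87 FPKM in NC, MK1775 and siRNA-labelled libraries. Its siRNA-labelled libraries did not overlap NC, but the difference of -0.20 was not called (adjusted p = 0.069). Ifngr1, the ligand-binding chain, had means of 6.60, 7.91 and 7.86 FPKM. Its MK1775 libraries all lay above NC, with a difference of 0.23 (adjusted p = 0.0717). Ifnar1 overlapped between the groups in both comparisons with NC (-0.18 and -0.22).

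Of the 5 transcription factors, Stat2, Irf7 and Irf2 rose in both comparisons, Irf1 was not called and Irf9 lay under the minimum. Stat2, which gives the interferon-stimulated complex its activation domain, stood at 1.06, 1.39 and 1.43 FPKM in NC. It stood at 2.19, 2.25 and 2.32 with MK1775 and at 2.54, 2.43 and 2.83 in the siRNA-labelled libraries. No treated library came near the NC range. Stat2 rose by 0.51 (SE 0.0897, adjusted p = 0.00257) and by 0.65 (adjusted p = 0.000697), a 1.74-fold and a 2.01-fold higher mean FPKM. These values are sums over 8 named transcripts. With the most abundant one alone, which NC library 1 lists at 0, the differences were larger, at 0.78 and 0.75, but so was the error (SE 0.301), and they were not called (adjusted p = 0.0859 and 0.0942).

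Irf7, which drives the later wave of type I interferon genes, stood at 0.685, 0.573 and 0.642 FPKM in NC. It reached 1.57, 1.45 and 1.61 with MK1775 and 1.75, 1.43 and 1.60 in the siRNA-labelled libraries. The treated libraries all lay above NC and the treated groups overlapped each other. These values are sums over several named transcripts, of which the most abundant made up 33.0%. That transcript alone lay under the minimum, so the rise was not tested in it. Irf7 reached the minimum only through its treated libraries, so its place among the tested members depends on that rise. In the fit with no minimum, which does not, it rose by 0.64 (SE 0.0912, adjusted p = 0.00241) and by 0.66 (adjusted p = 0.0018), with a mean FPKM 2.43-fold and 2.51-fold that of NC. Irf2, which can compete with IRF1 for the same promoter elements, stood at 7.40, 7.36 and 8.96 FPKM in NC. Its values were 10.3, 11.2 and 10.8 with MK1775 and 10.5, 10.0 and 9.52 in the siRNA-labelled libraries. The lowest treated library lay just above the highest NC library. Irf2 rose by 0.41 (SE 0.0814, adjusted p = 0.00487) and by 0.31 (adjusted p = 0.0156). Under the siRNA label its adjusted p was 0.0509 without NC library 2 and 0.05002 without siRNA library 1. Irf1, an activator of many of the same genes, had means of 13.4 ± 1.73, 13.9 ± 0.602 and 15.3 ± 0.895 FPKM (SD, n = 3) in NC, MK1775 and siRNA-labelled libraries. Its groups overlapped NC, at differences of 0.06 and 0.18 (adjusted p = 0.648 and 0.142). Leaving out NC library 2, the highest of the 3, brought a call under the siRNA label (0.27, adjusted p = 0.0236).

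Isg15, a ubiquitin-like modifier that is attached to other proteins, was not called in either comparison. It lies at chr4:156283912-156285364 (GRCm39). Its named transcript stood at 3.83, 5.39 and 5.54 FPKM in NC, at 9.15, 7.49 and 6.86 with MK1775 and at 7.32, 3.78 and 8.02 in the siRNA-labelled libraries. The MK1775 libraries lay above NC, whereas siRNA library 2 fell below all of NC. The differences were 0.58 (SE 0.244, adjusted p = 0.0928) and 0.28 (adjusted p = 0.405). That library alone lists an assembled transcript without a gene name at the Isg15 locus, at 3.94 FPKM. With it added, the library stood at 7.72 FPKM, and Isg15 was called in both comparisons (0.58, adjusted p = 0.00477, and 0.56, adjusted p = 0.00534). Leaving the library out gave 0.58 (adjusted p = 0.0182) and 0.56 (adjusted p = 0.0336). A fit of NC and MK1775 alone also called it (adjusted p = 0.0283). Herc6, the mouse ligase of this pathway, had means of 0.812, 1.14 and 1.15 FPKM. Its siRNA-labelled libraries lay above NC, without a call (0.25, adjusted p = 0.1). Usp18, which removes the modifier and dampens the receptor, lay under the minimum and is described with the low members. Trim25, a ubiquitin ligase of the same pathway, gave 0.0847 to 1.25 FPKM in its named transcripts. Unnamed transcripts at its locus carried 9.36 to 11.4 FPKM, and with them Trim25 stood at 11.4 ± 0.310, 10.6 ± 0.108 and 10.9 ± 0.458 FPKM (SD, n = 3) in NC, MK1775 and siRNA-labelled libraries. It was not called in that form (-0.10, adjusted p = 0.119, and -0.05, adjusted p = 0.388).

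The 2 most abundant members fell. Ifitm2 (chr7:140534750-140535900, GRCm39) stood at 105, 113 and 107 FPKM in NC, at 76.8, 80.9 and 77.8 with MK1775 and at 78.5, 78.2 and 76.5 in the siRNA-labelled libraries. The treated libraries sat close together and well below NC. Ifitm2 fell by 0.46 (SE 0.0412, adjusted p = 8.62e-05) and by 0.47 (adjusted p = 7.46e-05). Ifitm3 stood at 82.3, 89.7 and 85.1 FPKM in NC, at 75.3, 79.5 and 75.2 with MK1775 and at 75.4, 77.6 and 74.2 under the siRNA label. Both treated groups lay below NC by a small step and overlapped each other. Ifitm3 fell by 0.16 (SE 0.0452, adjusted p = 0.0235) and by 0.18 (adjusted p = 0.0145). With MK1775 its call ended under median-of-ratios scaling (-0.15, adjusted p = 0.0703), without the variance trend (0.0513) and on leaving out NC library 2 or 3 or MK1775 library 1 or 3 (0.0589 to 0.0775). Ifitm1, a neighbour of both on chromosome 7, was listed at 0 in all NC libraries and did not exceed 0.144 FPKM elsewhere. Bst2, or tetherin, which holds budding virus at the cell surface, had means of 24.4, 23.4 and 24.4 FPKM. Its differences were -0.06 (95% interval -0.18 to 0.07) and 0.00 (-0.12 to 0.13). The 44 members summed to 354 ± 14.3 FPKM in NC and to 326 ± 5.01 and 325 ± 4.55 in the treated groups (SD, n = 3). Without these 2 genes the sums were 159 ± 7.43, 171 ± 1.70 and 171 ± 7.10 FPKM.

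Among the 2′-5′-oligoadenylate synthetase genes, whose products sense double-stranded RNA and switch on RNase L, Oasl1 showed the highest rise of the tested members. Oasl1 is a synthetase-like protein without that enzyme activity. It lies at chr5:115061299-115075974 (GRCm39). It stood at 0.890, 1.15 and 1.18 FPKM in NC, at 3.67, 3.77 and 4.03 with MK1775 and at 3.21, 2.83 and 3.23 in the siRNA-labelled libraries. The 3 groups did not overlap, with MK1775 uppermost. Oasl1 rose by 1.22 (SE 0.0855, adjusted p = 2.5e-05) and by 0.98 (adjusted p = 7.53e-05), a mean FPKM 3.57-fold and 2.88-fold that of NC. Oas1a, an active synthetase, had means of 1.55, 2.06 and 1.63 FPKM and overlapped NC in both comparisons (0.27, adjusted p = 0.0957, and 0.05, adjusted p = 0.759). Without NC library 3, the highest of the 3 at 1.97 FPKM, Oas1a was called with MK1775 (0.39, adjusted p = 0.0234). Oas1a has close copies beside it, and reads shared among them could be split by the authors' assembly. Oas2, Oas3 and Oasl2 lay under the minimum.

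Of the other effectors that were tested, Isg20, Ifi27 and Ifi35 rose and Lgals3bp fell. Isg20, an exonuclease that degrades RNA, stood at 8.73, 8.81 and 7.61 FPKM in NC, at 15.3, 15.1 and 14.3 with MK1775 and at 13.6, 13.5 and 15.2 in the siRNA-labelled libraries. Every treated library was far above NC. Isg20 rose by 0.76 (SE 0.0735, adjusted p = 0.000124) and by 0.69 (adjusted p = 0.000202), or 1.78-fold and 1.68-fold in mean FPKM. Ifi35, a leucine zipper protein that pairs with NMI, stood at 8.43, 9.68 and 8.70 FPKM in NC, at 10.9, 11.2 and 11.2 with MK1775 and at 10.8, 10.4 and 12.1 under the siRNA label. Its groups were apart from NC by less than 1 FPKM at the nearest. Ifi35 rose by 0.29 (SE 0.0718, adjusted p = 0.0134) and by 0.28 (adjusted p = 0.0134), the latter not called from its most abundant transcript alone (adjusted p = 0.0558). Ifi27, a small mitochondrial protein, stood at 14.1, 14.2 and 14.8 FPKM in NC, at 18.3, 16.0 and 18.2 with MK1775 and at 17.4, 15.7 and 20.0 under the siRNA label. All treated libraries were higher, with more spread than NC. Ifi27 rose by 0.26 (SE 0.0899, adjusted p = 0.0495) and by 0.28 (adjusted p = 0.0383), and this call was the least stable of the members. It ended in 10 and 12 of 19 alternative fits.

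Lgals3bp, a secreted glycoprotein that binds galectins, showed the deepest fall of the tested members (chr11:118283577-118292918, GRCm39). It stood at 20.0, 23.5 and 20.9 FPKM in NC, at 9.07, 11.0 and 9.75 with MK1775 and at 9.62, 9.37 and 9.07 in the siRNA-labelled libraries. The treated libraries overlapped each other and stayed far below NC. Lgals3bp fell by 1.04 (SE 0.0822, adjusted p = 4.79e-05) and by 1.11 (adjusted p = 3.3e-05), and the NC mean was 2.16-fold and 2.29-fold that of the treated groups. The plot of single libraries shows the 11 called members and Isg15 together.

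**Figure D3:**
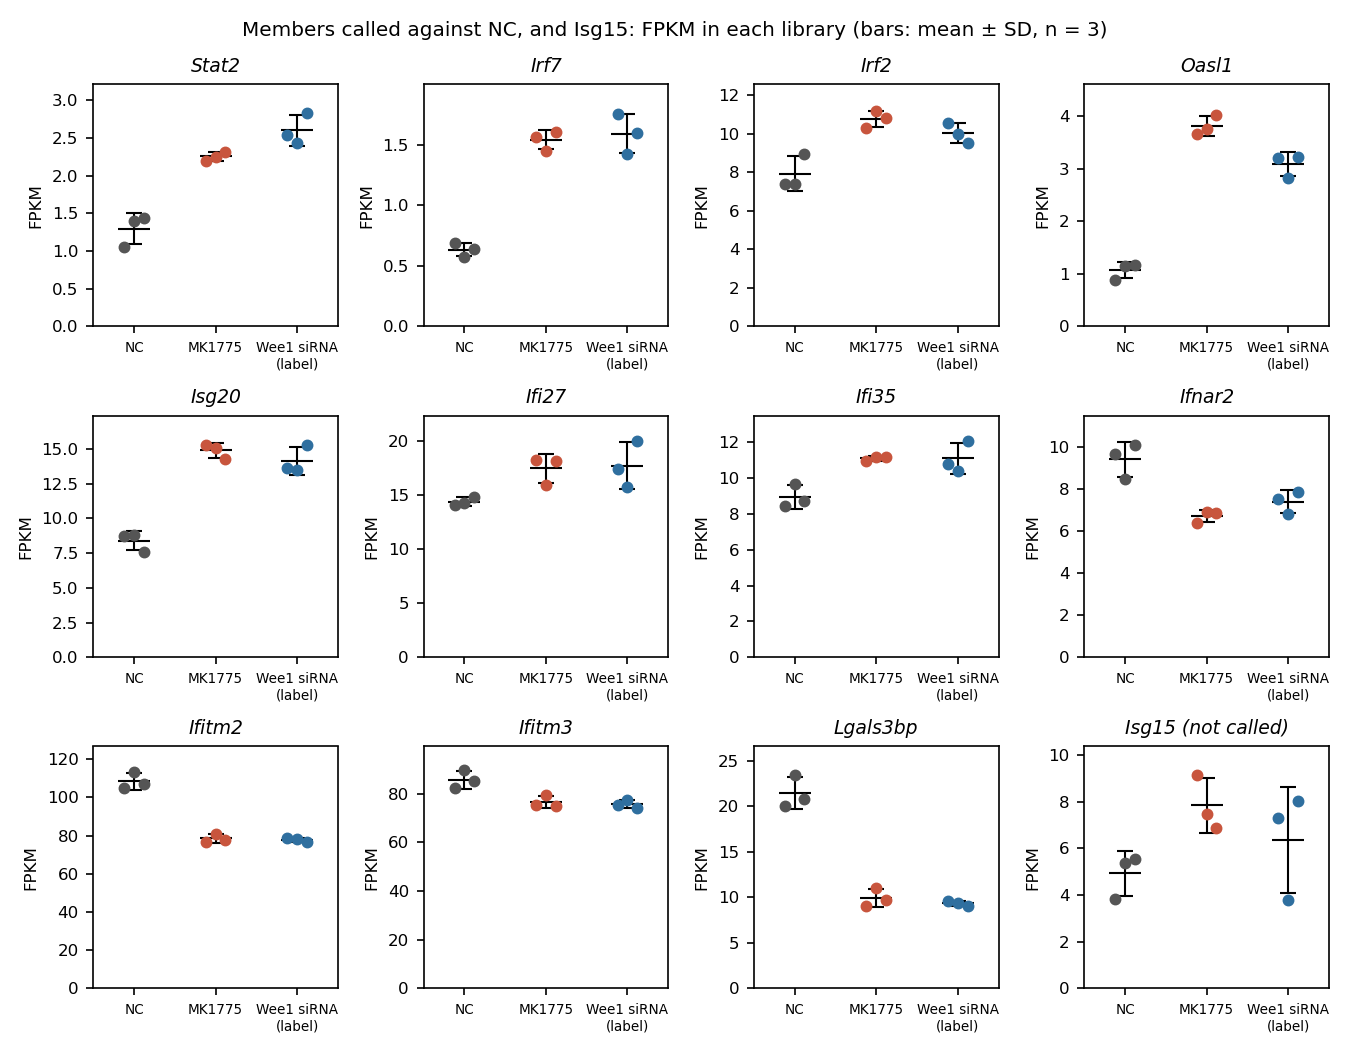
FPKM (y axis, from 0) in each library for the 11 members called against NC and for Isg15, by group (x axis); points are libraries and bars the mean ± SD of 3. In each of the 11 called members the treated libraries lie on 1 side of NC, whereas 1 siRNA-labelled library of Isg15 lies at 3.78 FPKM, below NC.

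No tested member of the PARP group was called. Dtx3l and Parp9, a ubiquitin ligase and its ADP-ribosyltransferase partner, overlap head to head by 681 bases on chromosome 16, and it is not given if the counting used strand. Parp9 had means of 2.14, 1.51 and 1.97 FPKM in its named transcripts and Dtx3l of 2.54, 2.51 and 2.39. Unnamed transcripts at the Parp9 locus carried another 1.05, 1.53 and 1.28 FPKM. With them the Parp9 means were 3.20, 3.04 and 3.25 FPKM, and its difference with MK1775 went from -0.33 to -0.05 (adjusted p = 0.625). Parp12, which restricts viral translation, had means of 7.37, 7.06 and 7.31 FPKM. From named transcripts the differences of the 3 from NC ran from -0.33 to -0.01, with the lowest adjusted p at 0.151.

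The 22 members under 1 FPKM did not enter the main test, and many stood higher in the treated libraries. With MK1775, 11 of the 22 had all libraries above all NC libraries and 0 had all below. Under the siRNA label the counts were also 11 and 0. For the 20 with a mean of at least 0.05 FPKM this is 55%, beside 32.7% and 35.6% of the 7088 genes between 0.05 and 1 FPKM. Wholly below NC were 5.49% and 4.36% of those genes. Over all 22 members the share above NC is 50%, since Ifit3 and Ifitm1, which that limit leaves out, overlapped NC. Mx1 and Mx2, counted among the 11 in each comparison, were listed at 0 in NC and reached 0.05 FPKM only through their treated libraries. These shares are therefore a description only. The levels of the 22 members summed to 6.39 ± 0.816 FPKM in NC, 11.2 ± 1.63 with MK1775 and 12.3 ± 1.58 under the siRNA label (SD, n = 3). All 6 treated libraries lay above all NC libraries for Usp18, Oas3, Mx1, Mx2, Gbp2, Parp14 and Xaf1. The share of all genes of that level with this pattern was not counted, so the names are a description only. When the limma fit was run with no minimum, 4 of the 20 (20%) were called higher with MK1775, beside 16% of genes of that level, and 6 (30%) under the siRNA label, beside 21.7%. Usp18, Oas3 and Gbp2 were called in both, Ifi44 with MK1775, and Irf9, Mx1 and Parp14 under the siRNA label. Of these, Mx1 is counted among the 20 only through its treated libraries.

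Oas3, the largest of the synthetases, stood at 0.132, 0.159 and 0.148 FPKM in NC. It reached 1.23, 1.18 and 1.01 with MK1775 and 1.28, 1.28 and 1.45 in the siRNA-labelled libraries. The gap to NC was wide, and the siRNA-labelled libraries lay above those with MK1775. The mean was 7.80-fold and 9.12-fold that of NC (0.90 and 1.03, adjusted p = 0.000424 and 0.000227 with no minimum). Usp18 stood at 0.0824, 0.279 and 0.132 FPKM in NC, at 0.999, 0.835 and 0.678 with MK1775 and at 1.25, 0.759 and 0.609 under the siRNA label. The lowest treated library lay above the highest of NC. Its mean was 5.09-fold and 5.31-fold that of NC (adjusted p = 0.0172 and 0.0141 with no minimum). Gbp2, a guanylate-binding protein that attacks the vacuoles of intracellular pathogens, stood at 0.0762, 0.142 and 0.128 FPKM in NC, at 0.489, 0.544 and 0.385 with MK1775 and at 0.403, 0.432 and 0.455 under the siRNA label. Its groups were as clearly apart from NC, at 4.09-fold and 3.73-fold in mean FPKM (adjusted p = 0.00239 and 0.00358 with no minimum). The depth is unknown, so the counting error at such levels cannot be given.

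**Figure D4:**
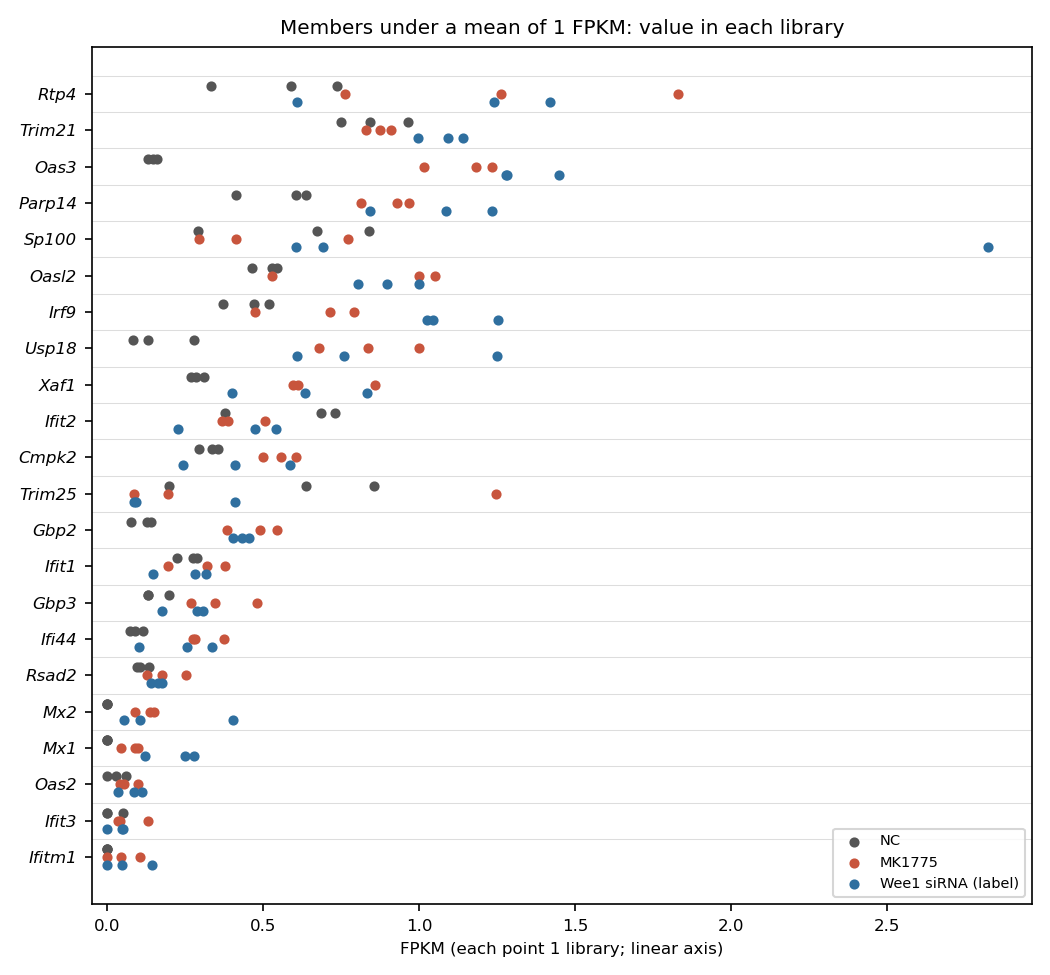
FPKM (x axis, linear) in each library for the 22 members with a mean under 1 FPKM (y axis), 1 point per library, by group. Oas3, Usp18 and Gbp2 show the treated points apart from NC, whereas 1 siRNA-labelled library of Sp100 stands alone at 2.82 FPKM in its named transcripts.

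The dynamin-like GTPases Mx1 and Mx2, which trap viral nucleoproteins, were listed at 0 in all 3 NC libraries. Mx1 stood at 0.0878, 0.0984 and 0.0434 FPKM with MK1775 and at 0.279, 0.120 and 0.250 under the siRNA label. Mx2 stood at 0.0888, 0.150 and 0.137 and at 0.0529, 0.402 and 0.104. Both were thus above 0 in every treated library, at levels where a listed 0 can also be a failed estimate. Irf9, the DNA-binding part of the STAT complex, stood in its named transcripts at 0.369, 0.519 and 0.471 FPKM in NC, at 0.790, 0.713 and 0.474 with MK1775 and at 1.03, 1.04 and 1.25 under the siRNA label. These overlapped NC with MK1775 and lay apart from it under the siRNA label (0.54, adjusted p = 0.0109 with no minimum). Its locus is joined with that of Rnf31 in the assembly, and most of its signal is in 2 unnamed transcripts that run across both genes. These stood at 2.31 to 2.56 FPKM in NC, at 3.30 to 3.57 with MK1775 and at 2.57 to 3.28 under the siRNA label. Summed with them, Irf9 stood at 2.83 to 2.93 FPKM in NC, 3.77 to 4.29 with MK1775 and 3.83 to 4.31 under the siRNA label, apart from NC in both comparisons. The share of these transcripts that belongs to Irf9 cannot be told from the table.

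Several of the other low members overlapped NC in 1 comparison or both. The IFIT genes Ifit1, Ifit2 and Ifit3, whose products bind foreign RNA ends, overlapped between the groups in every comparison and stayed at or below 0.730 FPKM in every library. Their summed level was 0.877 ± 0.240, 0.787 ± 0.0864 and 0.695 ± 0.188 FPKM in NC, MK1775 and siRNA-labelled libraries (SD, n = 3). Rsad2, or viperin, which makes a chain-terminating nucleotide from CTP, had means of 0.112, 0.185 and 0.159 FPKM, and its neighbour Cmpk2, a nucleotide kinase, 0.328, 0.554 and 0.412. Rsad2 lay apart from NC under the siRNA label and Cmpk2 with MK1775, and each overlapped NC in the other comparison. Rtp4 stood at 0.332, 0.736 and 0.588 FPKM in NC, at 1.83, 1.26 and 0.761 with MK1775 and at 1.42, 0.608 and 1.24 under the siRNA label. Its siRNA library 2 lies within NC. Sp100, a nuclear body protein, stood at 0.290, 0.672 and 0.838 FPKM in NC, at 0.412, 0.293 and 0.772 with MK1775 and at 0.605, 0.691 and 2.82 under the siRNA label. Unnamed transcripts within its span carried 0.781 to 1.51 FPKM in the other 8 libraries but 0.0297 in siRNA library 3. Summed with them, Sp100 was at 2.85 FPKM in that library and at 1.45 to 2.04 in the others, so it stayed the highest by a smaller gap. The remaining low members were Trim21, Oasl2, Oas2, Gbp3 and Ifitm1, and none of these was called with no minimum.

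Compared directly, MK1775 and the siRNA-labelled libraries gave 0 of 22 tested members called by limma, with 1 at an unadjusted p under 0.05. Over all genes 1 was called (Tmx2, 0.00957%) and 616 (5.89%) lay at an unadjusted p under 0.05. The member at an unadjusted p under 0.05 was Oasl1, which was 0.24 higher with MK1775 (95% interval 0.04 to 0.44, adjusted p = 0.781). The member differences ran from -0.23 for the named transcripts of Parp9 (interval -0.61 to 0.15; -0.07 with the unnamed ones added) to 0.31 for Isg15 (-0.26 to 0.87), and their median was 0.01. Among the 20 low members of at least 0.05 FPKM, 4 had all MK1775 libraries below all siRNA-labelled libraries (Oas3, Trim21, Irf9 and Mx1), beside 9.3% of genes of that level. None of the 4 was called with no minimum. Over all 44 members, 2 had all MK1775 libraries above the siRNA-labelled ones (Oasl1 and Oas1a). All below were 6, which are the 4 named and the tested Stat2 and Irf1. Among the 22 tested members alone these are 2 above and 2 below, beside 5.08% and 6.78% of all genes tested. The 4 low members compare with the 9.3% given for genes of their level. A missing call does not show that the 2 groups are alike: for Isg15 and Parp9 the intervals reach beyond differences of 0.5.

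The genes around the members in the pathway are given from lists of ligands, signalling genes, further induced genes and further genes of the members' families. Of 21 interferon ligand genes 0 reached the minimum, and 14 were listed at 0 in every library. The highest was Ifng, which was listed at 0 in all NC libraries. It stood at 1.27, 1.51 and 1.45 FPKM with MK1775 and at 0.528, 1.68 and 1.66 under the siRNA label. Ifng thus appeared in every treated library, at a level close to the minimum. Ifnz had the same pattern, at 0.0244 to 0.0516 FPKM with MK1775 and 0.0239 to 0.0399 under the siRNA label. The share of all genes with this pattern was not counted. Among the immune markers given above, Itgax and Itgam had the same pattern of 0 in NC, Ptprc had a higher mean in the treated groups, and Cd3e and Nkg7 were listed at 0 throughout; their part in the Ifng values was not tested.

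Of 22 signalling genes 20 were tested, and 1 rose and 5 fell with MK1775, as 1 and 4 did under the siRNA label. That is 30% and 25% of those tested, beside 41% and 42.8% of all genes. Stat3, a STAT of the interleukin-6 family, rose by 0.38 (adjusted p = 0.000829) and 0.41 (adjusted p = 0.00058). Ptpn6, a phosphatase that damps cytokine receptors, fell by 1.04 (adjusted p = 5.23e-05) and by 0.94 (adjusted p = 8.24e-05). Irf8, a factor best known from myeloid cells, fell by 0.61 (adjusted p = 0.000142) and by 0.74 (adjusted p = 5.74e-05). Il10rb, whose locus is joined with Ifnar2, fell by 0.51 with MK1775 (adjusted p = 0.0113) and had a difference of -0.24 under the siRNA label (adjusted p = 0.15). These are its named transcripts: with the unnamed one inside its span, Il10rb stood at 5.70 to 6.54 FPKM in NC and at 4.73 to 6.30 with MK1775, which overlap.

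Of 70 further interferon-induced genes 68 were matched and 39 tested. With MK1775 14 rose and 7 fell, 53.8% of those tested beside 41%, and under the siRNA label 12 rose and 7 fell, 48.7% beside 42.8%. By direction, 35.9% and 30.8% rose, beside 17.9% and 19.6% of all genes, and 17.9% fell in each, beside 23.1% and 23.2%. Cxcl10, a chemokine that draws T cells, is counted among those that rose. It had an NC mean of 0.318 FPKM and reached the minimum only through its treated libraries. How many other genes of this list did so was not counted, so the shares of the list are a description only. In the limma fit with no minimum, Cxcl10 rose by 1.41 (adjusted p = 5.37e-05) and by 1.14 (adjusted p = 0.00014). Genes of class I antigen presentation were among the named ones: Tap1, of the peptide transporter, rose by 1.12 (adjusted p = 1.63e-05) and 1.02 (adjusted p = 2.46e-05), and B2m, the light chain, by 1.08 (adjusted p = 5.87e-05) and 1.02 (adjusted p = 7.67e-05). B2m stood at 313 to 382 FPKM in NC, 690 to 774 with MK1775 and 661 to 776 under the siRNA label, so the treated groups lay apart from NC. Trim56, a ubiquitin ligase of antiviral signalling, rose by 0.71 (adjusted p = 0.000128) and by 0.85 (adjusted p = 5.44e-05). Of 24 further genes of the members' families, not all of them close copies, 3 were tested (Isg20l2, Oas1g and Trim27). Limma called 0 of these, with 0 at an unadjusted p under 0.05 in either comparison with NC. Of the other 21, 11 had a mean of at least 0.05 FPKM. With no minimum 3 of these 11 (27.3%) were called higher with MK1775, beside 16% of genes of that level, and 4 (36.4%) under the siRNA label, beside 21.7%. They were Oas1c, Oas1d and Gbp2b in both and Oas1b under the siRNA label. All MK1775 libraries lay above NC for 6 of the 11 (54.5%, beside 32.7%), and all siRNA-labelled libraries for 4 (36.4%, beside 35.6%). Some of the 11 reached 0.05 FPKM only through their treated libraries. Among them were Oas1d and Ifit1bl1, listed at 0 in all NC libraries, and Gbp8, with an NC mean of 0.0223 FPKM. These genes are among the 6, and Oas1d is among those called. The shares of the 11 are therefore a description only.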

How the data were processed

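Per the labels' protocols, total RNA of 4T1 cells was extracted with an RNeasy kit and made into libraries with an NEBNext Ultra kit. Per the submitters' processing notes, the tools were FastQC, Trim Galore, HISAT2 and StringTie (no versions given) and the build was GRCm39. The authors' deposited unit is FPKM, 1 value per transcript and library, for 158719 transcripts, of which 17991 carry no gene name. Low values gave no common step, so reads were not recovered and no count model was used. Whether the counting used strand is not given in the sources used here.

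FPKM was summed per gene name, leaving out 19 names found on several chromosomes. Tested were genes whose average over the 9 libraries reached 1 FPKM, as log2(FPKM + 1), a scale that understates changes of low genes. All 9 libraries entered 1 fit in limma 3.58.1 (R 4.3.3), with eBayes and its trend option, 3 contrasts and no covariate. Called means a two-sided p, adjusted after Benjamini-Hochberg over all genes tested, under 0.05. With 3 against 3, 0.1 is the smallest p of an exact permutation test. Gene spans are those of the deposited table (GRCm39), and promoter windows are those of RefSeq on GRCm38.p6; no coordinates were mixed.

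The members and lists were chosen with earlier results of these data known. Given with values in every library were members called in any comparison and the 3 low members with the highest single value (Sp100, Rtp4 and Oas3). Other tested members whose groups do not overlap in a comparison with NC were named. Further members given library by library (Isg15, Usp18, Gbp2, Irf9, Mx1, Mx2) were chosen after their values were seen. Of each list up to 4 genes with the smallest adjusted p were named, and Wee1 as the targeted gene. The alternatives were another pseudocount (0.1), no minimum or one of 5 FPKM, median-of-ratios and quantile scaling, a replicate block, fits of 2 groups, no trend, the most abundant transcript, unnamed transcripts added, and each library left out. Some genes of the lists are not reported by name here.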

Additional observations from a re-analysis of the deposited data

How the results depend on the processing

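No member reversed direction as a call under any of the 19 alternatives. Of the 11 members called in each comparison with NC, 7 with MK1775 and 6 under the siRNA label were called under every alternative that tested them. With the most abundant transcript in place of the sum, 7 members were called in each comparison with NC, though not the same ones. Ifnar2, Stat2 and Ifi27 lost their calls in both, and Ifi35 under the siRNA label. Irf7, whose most abundant transcript lay under the minimum, was not tested in that form. Irf1 gained a call under the siRNA label (0.26, limma adjusted p = 0.0148). Why these calls changed was not tested. Leaving out 1 library at a time gave 9 to 12 members with MK1775, 9 to 11 under the siRNA label and 0 to 0 in the direct comparison, and 3568 to 4335, 3755 to 4361 and 0 to 3 genes over the whole table. In the direct comparison 11 genes were called with no minimum, of 28692 tested, and 2 with the most abundant transcript. The replicate numbers did not pair the libraries: deviations of same-numbered libraries correlated at -0.0152 to 0.0435 between MK1775 and NC, -0.12 to 0.0435 between the siRNA label and NC, and -0.114 to -0.0211 between the treated groups. With the replicate block, 11, 12 and 0 members and 3881, 4079 and 0 genes were called in the 3 comparisons; the added member was Ifnar1 under the siRNA label (-0.22, adjusted p = 0.0439). Uncalled members that some alternative called were Ifngr1, Isg15 and Oas1a with MK1775 and Ifnar1, Ifngr2, Irf1 and Isg15 under the siRNA label. The depth is unknown, so the counting error of members under 1 FPKM was not estimated.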
